A study of Mus musculus with 3 samples.

Results

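Peaks of CLK (CLOCK), a transcription factor of the circadian clock, were examined at 5 mouse genes that encode plasma proteins made by the liver, *Alb*, *Apoa1*, *Apoa5*, *Trf* and *Serpina3k*. The genes were chosen because the authors had assigned CLK peaks to them, so the CLK values below describe the peaks and are not tests. Every peak that carried one of these symbols in the deposited table was taken, whatever its class, which gave 14 of the 2127 peaks of the table and 14 of the 759 peaks of the CLK list. Of these 14 peaks, 10 belonged to *Alb* and 1 to each of the other genes. In 3 of them, all at *Alb*, the CLK peak overlapped a peak of BMAL1, the partner of CLK, by at least 1 bp (CLK:BMAL1 peaks). The other 11 were CLK only, and no BMAL1 only peak carried any of the 5 symbols.

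The data came from livers of adult C57BL/6 mice aged 3 to 6 months that had lived under a cycle of 12 h light and 12 h dark for at least 2 weeks. All chromatin was taken at ZT8, 8 h after lights on, cross-linked with formaldehyde and sonicated. The same liver extract was immunoprecipitated with an anti-CLK or an anti-BMAL1 antibody, or kept with no antibody as the Input. Each of the 3 groups was 1 library, so no value has a replicate and no p-value is given. After removal of duplicate tags the CLK library held 33057959 tags, the BMAL1 library 25217144 and the Input 18206506. Intervals given with values are 95% intervals. Those of tag counts and of their ratios cover counting error only, and PCR copies are not independent molecules. Intervals of medians and shares treat the peaks as independent, although these share genes and libraries.

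CLK and BMAL1 bind DNA as a pair at e-boxes, short elements with the letters CACGTG, and turn on the *Per*, *Cry* and *Nr1d1* genes, whose products feed back on them. Hepatocytes transcribe plasma protein genes at very high rates and secrete their products into the blood. *Alb* encodes albumin, the main carrier protein of plasma, *Apoa1* the main protein of high-density lipoprotein, *Apoa5* a regulator of plasma triglycerides, *Trf* the iron carrier transferrin and *Serpina3k* a serine protease inhibitor. Transcription of these genes was not analysed here.

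The sequences under the CLK summits show how the loci differ in e-boxes, and 30 bases are printed for 5 member sites and for the strongest CLK peak of 3 clock genes. All are from the + strand of mm9, and capitals mark hexamers that match CACGTG with at most 1 mismatch.
*Alb*, start site, chr5:90890025-90890054: ttcgccgagaagCACGTAagagttttatgt
*Alb*, 3′ end, chr5:90903763-90903792: ccattttctgtgCACGTGgtCAGGTGtagc
*Apoa1*, last exon, chr9:46038346-46038375: ccCACCTGaagaCACTTGgcgagaaagcca
*Apoa5*, promoter, chr9:46076597-46076626: tctttgaccctcCACGTGgtgtttgctcag
*Trf*, start site, chr9:103132597-103132626: ctgcgccgcctgCCCGTGgcccgctcgcct
*Nr1d1*, first intron, chr11:98635161-98635190: acgtccccactcCACGTGtgcccctcgcac
*Per1*, promoter, chr11:68908557-68908586: cgcccccgccctCACGTGgctctatcacta
*Gm129*, upstream, chr3:95686572-95686601: gCACGGGcgcagCACGTGggagccctcagc
Each window is centred on the closest match within 100 bp of the CLK summit, with 1 exception. The window labelled *Alb* 3′ end lies inside the gene, in the peak at coding exon 13, where CACGTG lay 165.5 bp from the summit. The *Apoa5* e-box lay 21.5 bp from its summit. The *Alb* start site and *Apoa1* windows held hexamers with 1 mismatch, whose centres lay 23.5 and 21.5 bp from the summits. At *Trf* the closest match lay 97.5 bp away, and at *Serpina3k* none was found, so that the 29 bases at its summit carry no capitals.
*Serpina3k*, first intron, chr12:105577035-105577063: tgctgctgtgatagctaggctgagacagg

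At *Alb* the CLK signal was spread over many peaks, with summits of 10 to 18 overlapping tags and a median of 16, against 14 over the CLK list and 28 at the clock genes described further on. The gene lies on the + strand of chromosome 5, from 90889927 to 90905626 (mm9), and has 15 exons over 15700 bp. Its 10 CLK peaks held 345 tags in 5127 bp and covered 24.4% of the gene. Of the 10 summits, 7 lay inside the gene and 3 past its end. With the other 4 genes, 10 of the 14 member summits lay inside the gene they were assigned to, as did 44.3% of all CLK summits. The peaks formed a 5′ group and a 3′ group with 7533 bp between them in which no CLK peak was called.

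The 5′ group of *Alb* began at the promoter. The first peak, chr5:90889818-90890196, was 379 bp wide and reached from 109 bp before the start site to 269 bp after it, with its summit in coding exon 1. It held 22 tags, or 5.80 tags per 100 bp, against a genome average of 1.75 in this library, and its fold over Input was 8.47. The fold is the height of the summit divided by the local background expected from the Input. Both parts were worked out for each peak from its score, tags and fold. This narrow peak had the second highest fold of the 14.

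The second peak, chr5:90890490-90891159, began 293 bp further on, with its summit in intron 2. It was 670 bp wide and held 50 tags, with a fold of 4.84. Its summit was hardly higher than that of the first peak, at 17 overlapping tags against 16, but the Input at this site stood at 1.86 times its genome average (12 Input tags in the peak). At the first peak the background was the genome average itself. The lower fold of the second peak thus went with a higher background and not with a lower summit.

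The third peak, chr5:90891450-90892397 with its summit in intron 3, was the widest at *Alb*. It spanned 948 bp, from 1523 to 2470 bp past the start site, and held 71 tags [55.5–89.6, exact Poisson]. Its score, the p-value of MACS as 10 times −log10 p, was 136.27 and its fold 5.83. The fourth peak, chr5:90892910-90893499 at coding exon 4, held 43 tags in 590 bp, with a score of 133.56 and a fold of 8.50, the highest among the 14 peaks. The fifth, chr5:90895252-90895803 at intron 6, held 35 tags in 552 bp with a fold of 7.02. All 5 peaks of this group had summits of 15 to 17 tags, so that their folds of 4.84 to 8.50 varied mainly with the background. The background ranged from the genome average, the lowest value it can take even where the local Input is lower, to 1.86 times it.

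The 3′ group of *Alb* was lower. It held 124 tags in 5 peaks, 6.24 per 100 bp, against 221 tags and 7.04 per 100 bp in the 5′ group. Its first peak, chr5:90903337-90903806 at coding exon 13, held 32 tags in 470 bp and had the highest summit at *Alb*, 18 tags, with a fold of 6.12. The peak at intron 14, chr5:90905116-90905440, was the narrowest of the 14, with 19 tags in 325 bp and a summit of 11 tags. The other 3 peaks followed the end of the gene at intervals of 200 bp or less, up to 17262 bp past the start site. They held 23, 31 and 19 tags in 397, 447 and 349 bp, with folds of 5.82, 6.08 and 5.29. The last of them had the lowest score of the members, 51.78, where the calling cutoff lies at 50.

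At *Apoa1* and *Trf* the signal was gathered into single wide peaks. *Apoa1* lies on the + strand of chromosome 9, from 46036793 to 46038549, a short gene of 1757 bp and 4 exons. Its CLK peak, chr9:46036653-46039112, covered the whole gene, from 140 bp before the start site to 2319 bp after it. With 2460 bp it was the second widest CLK peak of the 759, and with 200 tags [173–230] it ranked 7 by tags and 24 by score (198.63). Its fold of 5.17 ranked 651. The summit stood at 21 tags, 2.39 times the mean pileup of tags over the peak, and lay 1589 bp past the start site, in coding exon 4. The Input was high along the same stretch, with 51 Input tags, 2.15 times the genome average.

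*Trf* lies on the − strand of chromosome 9, from 103111206 to 103132616, with 17 exons over 21411 bp. Its peak, chr9:103130602-103132847, was 2246 bp wide, which ranked 4, and held 173 tags [148–201]. It reached from 231 bp before the start site to 2014 bp after it and so covered 9.41% of the gene. The score was 160.27 and the fold 5.34, which ranked 604. The summit of 21 tags lay 102 bp past the start site, in coding exon 1, and 45 Input tags put the background at 2.08 times the genome average. In contrast to *Apoa1*, the summit sat next to the start site and the signal ran on into the gene.

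The peak at *Serpina3k* had the highest tag density and the highest summit among the members. The gene lies on the + strand of chromosome 12, from 105576696 to 105583949, with 5 exons over 7254 bp. The peak, chr12:105576704-105578009, began 8 bp past the start site and ended at 1313 bp, with its summit in intron 1. It held 125 tags [104–149] in 1306 bp, or 9.57 per 100 bp, with a summit of 24 tags. The score was 156.27 and the fold 5.32. The background, 2.39 times the genome average, was also the highest of the 14 peaks. A neighbouring CLK only peak, chr12:105584949-105585497, with 37 tags in 549 bp and a fold of 5.10, was assigned to *Serpina3m*, a paralog. Only reads with a unique position in the genome were kept by the authors, so reads that fit both of these near copies equally well were not counted at either.

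*Apoa5* carried the peak closest in position to an e-box. The gene lies on the + strand of chromosome 9, from 46076691 to 46080002. Its peak, chr9:46076445-46077080, was 636 bp wide and spanned the start site, from 246 bp before it to 389 bp after it, with the summit 58 bp before it. It held 45 tags [32.8–60.2] with a summit of 16 tags. The score, 59.02, was near the cutoff, and the fold, 4.53, was the lowest of the 14 and ranked 713 of 759. Thus the member peak with CACGTG at its summit was the weakest by fold.

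**Figure D1:**
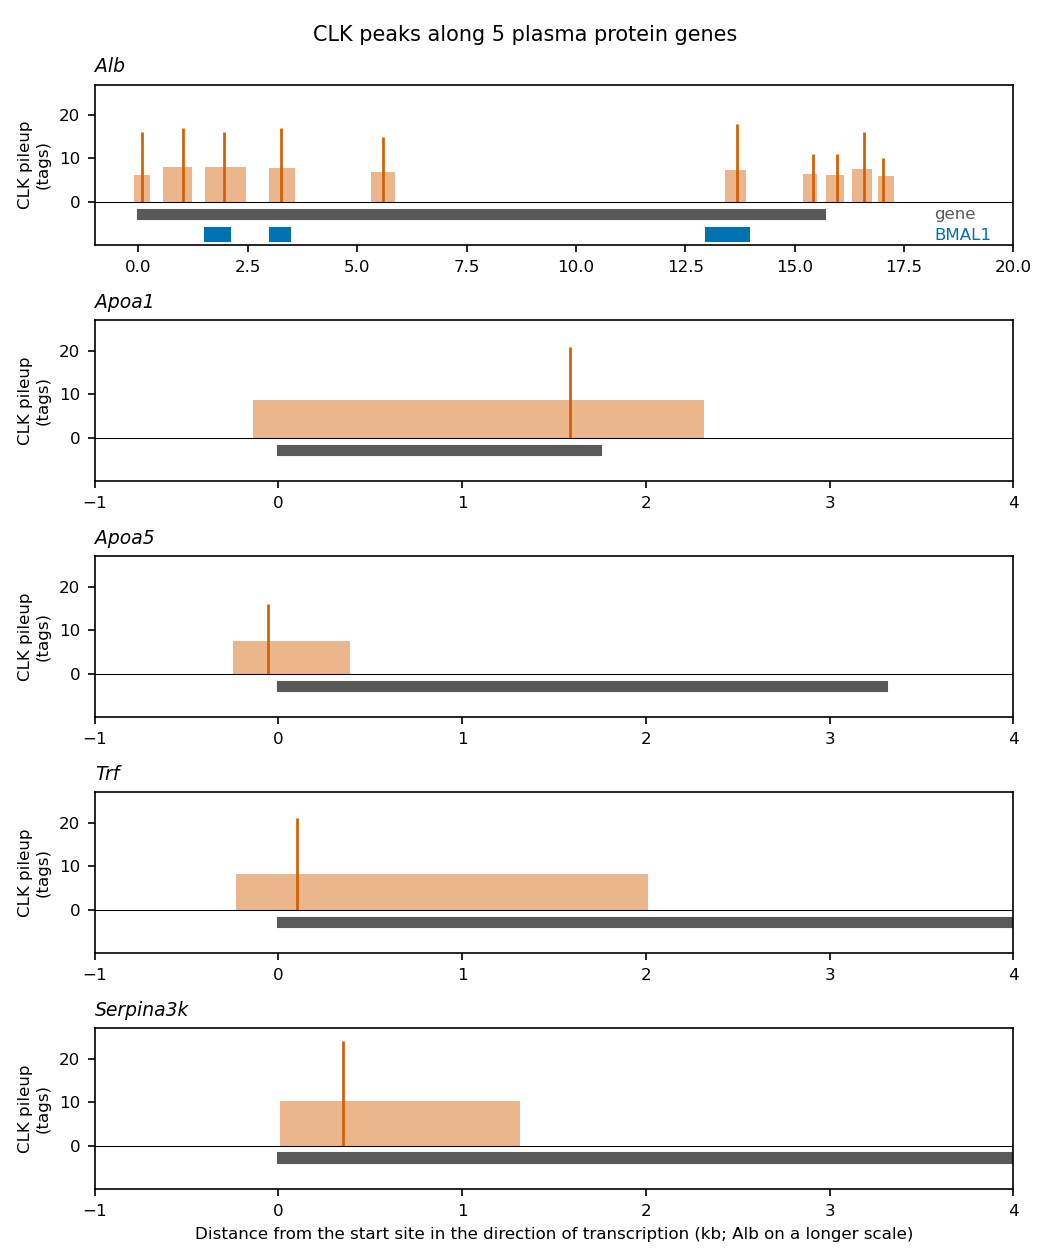
CLK peaks along the 5 genes, with the distance from the start site in kb on the x axis and the pileup of CLK tags on the y axis. Shaded boxes span each peak at its mean pileup, vertical lines mark the summit height, grey bars the gene (cut at the right edge for *Trf* and *Serpina3k*) and blue bars the BMAL1 peaks. *Alb* shows 10 peaks in 2 groups, whereas *Apoa1*, *Trf* and *Serpina3k* each show 1 wide peak with a summit of 21 to 24 tags.

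Across the members, width and fold therefore took different courses. The peaks ranged from 325 to 2460 bp and from 19 to 200 tags, but the folds only from 4.53 to 8.50 and the summits from 10 to 24 tags. The 3 peaks of at least 100 tags had folds of 5.17 to 5.34 and backgrounds of 2.08 to 2.39. Of the 14 peaks, 11 (78.6%) had a fold below the median of the CLK list, 6.35, where 44.9% of all CLK peaks did. A width of at least 1000 bp was found for 3 of the 14 peaks and for 2.11% of all CLK peaks, and a score of at least 100 for 5 of the 14 and for 12.4% of all. An FDR of at most 5%, as MACS gives it from swapping ChIP and Input, was found for 4 of the 14 peaks and for 21.3% of all. Among the members the FDR was highest at the wide peaks, 12.50% at *Apoa1*, 8.33% at *Trf* and 8.11% at *Serpina3k*. Such values were not particular to the members. The median FDR was 5.54% both here and at the clock genes described further on, where it reached 14.3%.

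**Figure D2:**
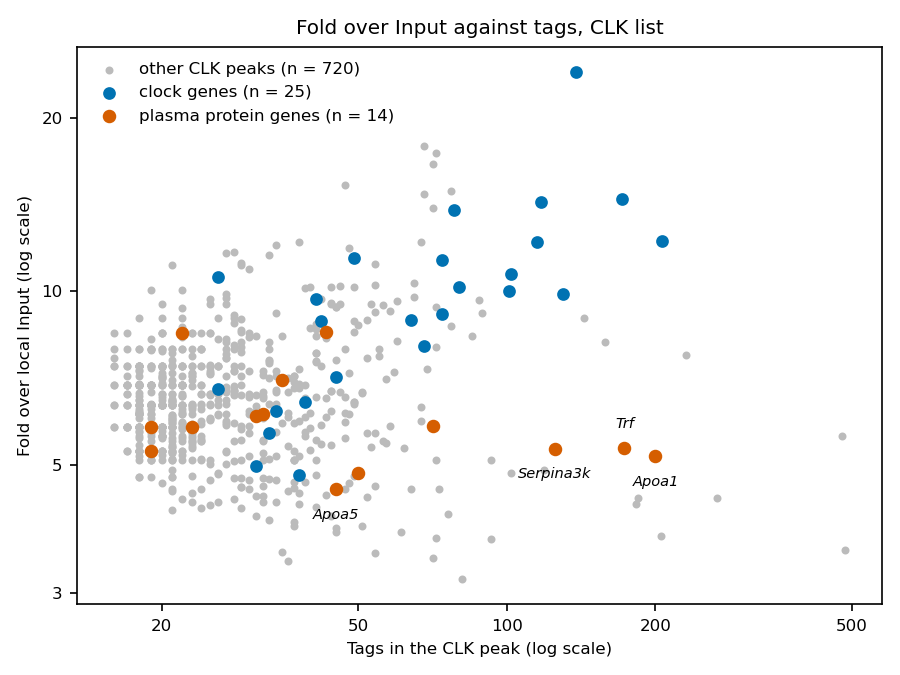
Fold over local Input against the number of tags for the 759 CLK peaks, both on log scales. At over 100 tags the 3 plasma protein peaks (orange) lie at folds of 5.17 to 5.34 and the 8 clock gene peaks (blue) at 9.88 to 24.02.

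To ask whether the shape differed from that at clock genes, the 14 peaks were set beside the 25 CLK peaks of 14 genes from a list of 23 clock genes. Width did not separate the lists. The median was 571 bp [379–1306, exact order-statistic interval] at the plasma protein genes and 606 bp [516–745] at the clock genes, both above the 390 bp of the whole CLK list, and 14 clock peaks, at *Bhlhe41*, *Dbp*, *Gm129*, *Hlf*, *Nr1d1*, *Nr1d2*, *Per1*, *Per2* and *Tef*, were wider than the median member peak. The direction of this small difference depended on the peaks taken. Without *Alb* the member median was 1776 bp, and with 1 value per gene it exceeded that of the clock genes by 691 bp.

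Height and fold separated the lists more clearly, with the members closer than the clock genes to the CLK list as a whole. The median fold was 5.82 [5.17–7.02] at the plasma protein genes and 9.88 [8.03–11.3] at the clock genes, beside 6.35 over the CLK list. The summit height had a median of 16 tags [11–21] against 28 [22–39], and the tag density 7.01 per 100 bp [5.80–7.70] against 10.4 [7.95–12.4]. Over the CLK list the medians were 14 tags and 6.17 per 100 bp, so that the members lay slightly above the list in both and the clock genes further above it. The ranges overlapped in every measure. The summit was 2.15 times the mean pileup [1.76–2.45] at the plasma protein genes, near the 2.09 of all CLK peaks, and 2.55 times [2.30–2.95] at the clock genes. The lists thus overlapped in this ratio, which went up to 2.55 at the plasma protein genes and to 4.17 at the clock genes. Fold, summit height, tag density and this ratio were lower at the plasma protein genes under every alternative tried. None of these compared peaks of the same class. Of the member peaks 11 were CLK only, whereas 22 of the 25 clock peaks were CLK:BMAL1. The 3 CLK only clock peaks, at *Cry2*, *Per1* and *Rora*, had folds of 7.10, 4.98 and 6.76, within the member range. Their summits were 26, 16 and 13 tags, against 10 to 24 at the members.

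The contrast was plainest among peaks with similar numbers of tags. *Gm129*, which encodes the repressor CIART, had 206 CLK tags, close to the 200 of *Apoa1*, in 1251 bp, the widest clock gene peak. Its score was 676.18 against 198.63, its fold 12.24 against 5.17 and its summit 48 tags against 21, at nearly the same background, 2.08 against 2.15 times the genome average. *Per1*, a repressor gene of the clock, had 171 tags in 919 bp, with the highest score of the CLK list, 701.37, and a fold of 14.45. *Trf*, with 173 tags in 2246 bp, had a score of 160.27. The highest fold, 24.02, belonged to *Nr1d1*, the gene of the nuclear receptor REV-ERBα, where 138 tags lay in 865 bp with a summit of 65. The 8 clock peaks of at least 100 tags had 11.7 to 18.6 tags per 100 bp and the 3 plasma protein peaks 7.70 to 9.57. The other 11 CLK peaks of at least 100 tags, at genes of neither list, had folds of 3.55 to 9.01 and 7.65 to 56.3 tags per 100 bp, so that a fold below 9.88 at many tags was not limited to the plasma protein genes. These pairs were picked by their tags after the values were seen.

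The Input background did not separate the lists. Its median was 1.42 times the genome average [1–2.08] at the plasma protein genes, 1.66 [1.45–1.85] at the clock genes and 1.10 over the CLK list. The direction of this difference also turned with the peaks taken, since the median without *Alb* was 2.12. At 4 of the 14 member peaks, all at *Alb*, the background was the genome average, as at 1 of the 25 clock peaks (4%) and 32.1% of all CLK peaks. The content of G and C within 100 bp of the summit had a median of 47.5% at the plasma protein genes, with 38.3 to 51.2% at *Alb* and 64.7% at *Trf*, against 65.2% at the clock genes and 52.2% over the CLK list. Its part in the other differences was not tested.

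**Figure D3:**
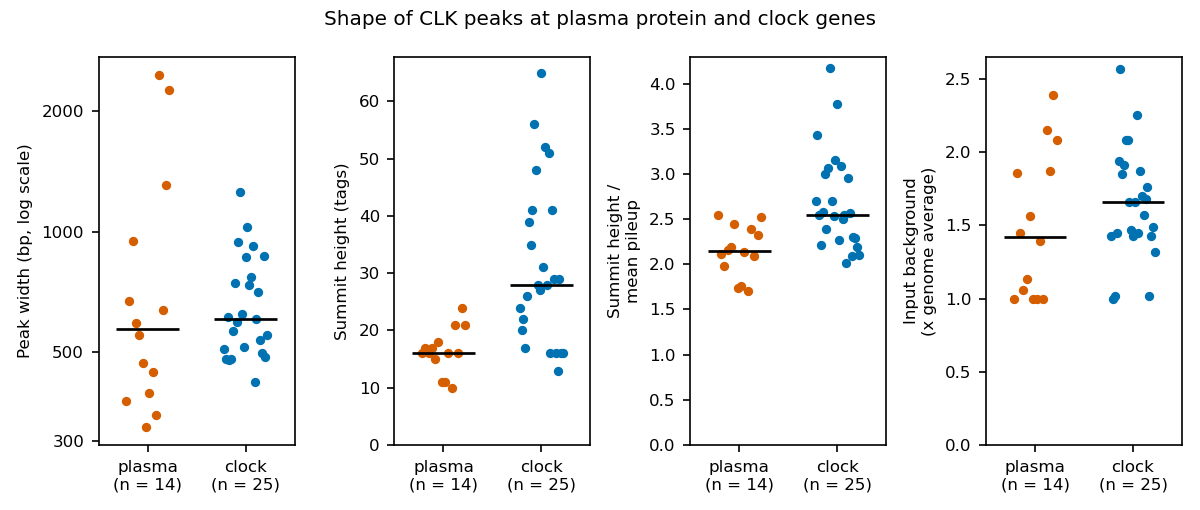
Width, summit height, summit height over mean pileup and Input background of each CLK peak at the plasma protein genes (orange) and clock genes (blue), with black lines at the medians. Width and background overlap, while the member summits end at 24 tags and the clock gene summits reach 65.

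BMAL1 peaks were found at 3 of the 14 member peaks (21.4% [4.66–50.8, exact Clopper-Pearson]), against 22 of 25 clock peaks (88.0% [68.8–97.5]) and 27.8% of all CLK peaks. At the other member peaks BMAL1 was below the calling cutoff, which does not show that it was absent. The CLK only peaks of *Alb* lay 291 to 2965 bp from the nearest BMAL1 peak. With peaks extended by 500 bp, the share with BMAL1 was 28.6% at the members and 92.0% at the clock genes. The nearest BMAL1 peak lay 135355 bp from the *Trf* peak, 519235 bp from that of *Serpina3k*, 1257814 bp from that of *Apoa1* and 1297606 bp from that of *Apoa5*. Thus the 3 member peaks with most tags stood far from any BMAL1 peak.

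In raw counts, the 3 BMAL1 peaks of *Alb* had summits of 12, 14 and 14 tags against 16, 17 and 18 at the CLK peaks they met. The BMAL1 library held fewer tags and the heights were not scaled, so they do not show that BMAL1 was lower. At intron 3, chr5:90891450-90892014 held 27 BMAL1 tags in 565 bp, with a score of 54.30 and a fold of 5.73, and shared its first base with the CLK peak. At exon 4, chr5:90892930-90893386 held 26 tags in 457 bp, with a score of 82.31 and a fold of 7.57. At the CLK peak of exon 13, chr5:90902905-90903876 held 48 tags in 972 bp, with a score of 62.69 and a fold of 5.37. The summits of CLK and BMAL1 lay 157, 50 and 591 bp apart. The median distance was 17.0 bp over the 22 clock gene pairs and 21.0 bp over all 212 pairs. The clock gene distances ranged from 3 to 1458 bp, the largest where 1 BMAL1 peak of *Nr1d1* met 2 CLK peaks. The next largest was 407 bp, at *Gm129*.

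Tag densities of both factors at *Alb* were compared over their own peaks, which differed in width, so the ratio does not measure the balance of the factors on the same bases. Scaled to the unique tags of each library, the CLK tag density was 1.20 times that of BMAL1 [0.758–1.94, exact binomial] at intron 3. It was 0.977 times [0.587–1.66] at exon 4 and 1.05 times [0.651–1.68] at exon 13. All 3 intervals include 1, and that at exon 4 also includes the clock gene median. Over the 22 clock gene pairs, in which 1 BMAL1 peak of *Nr1d1* counts with 2 CLK peaks, this ratio had a median of 0.622, with a range of 0.459 to 1.05, and over all pairs a median of 0.818. The CLK fold was above the BMAL1 fold in all 3 *Alb* pairs, by 1.02 to 1.14 times, in 1 of the 22 clock gene pairs (*Wee1*) and in 35 of the 212 pairs of both lists.

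**Figure D4:**
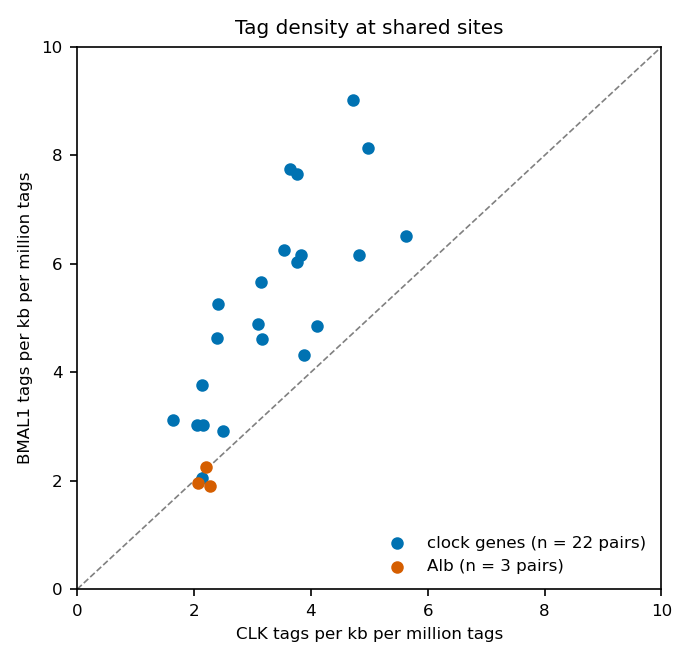
CLK and BMAL1 tag density at sites with peaks of both factors, in tags per kb, scaled to the same number of unique tags, each over its own called peak, with the dashed line at equal density. The 3 *Alb* pairs (orange) have ratios of CLK over BMAL1 of 0.977 to 1.20, and the 22 clock gene pairs (blue), which include 1 BMAL1 peak of *Nr1d1* in 2 pairs, have a median CLK over BMAL1 ratio of 0.622.

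E-boxes were few at the members. CACGTG was found within 100 bp of the summit at 1 of the 14 peaks, that of *Apoa5* (7.14% [0.181–33.9]), against 15 of 25 clock peaks (60.0% [38.7–78.9]) and 24.0% of all CLK peaks. With at most 1 mismatch, 10 of the 14 peaks had such a hexamer, a share of 71.4% beside 72.2% of all CLK peaks and 100% of the clock peaks. CACGTT and TTATGTAA, the D-box of the clock factor DBP, were searched on both strands within 100 bp of the summit only. There they were found at none of the 14 peaks (0% [0–23.2, exact Clopper-Pearson]). They were found at 7 and 4 of the 25 clock peaks and at 8.70% and 2.37% of all CLK peaks. The strong peaks of *Apoa1*, *Trf* and *Serpina3k* and the BMAL1 sites of *Alb* had no CACGTG within 100 bp of the CLK summit.

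In RefSeq promoters (GRCm38.p6, 250 bases before to 50 after the start), entries matched *Alb*, *Apoa1* and *Apoa5*. Both entries of *Apoa5* held CACGTG, as 7.15% of 32851 promoters did, and those of *Alb* and *Apoa1* did not. The *Alb* entry held TTATGTAA, as did 0.938% of promoters.

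Other plasma protein genes were searched for peaks as well. In a list of 85 such genes besides the members, with other apolipoproteins, fibrinogens, complement and coagulation factors, *Serpina3m* and *Serpinc1* carried a CLK peak. Neither of these peaks overlapped a BMAL1 peak. The share of all genes that carry a CLK peak was not counted, so this number cannot be called low or high. *Serpinc1*, which encodes antithrombin, had 26 tags in 417 bp at its promoter, with a score of 77.76 and a fold of 7.41 at a background equal to the genome average. *F5* and *Serping1* carried BMAL1 only peaks. The 5 members were chosen for their peaks, so their number beside this list is not evidence about plasma protein genes as a class.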

How the data were processed

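ChIP-seq of CLK, BMAL1 and Input from mouse liver at ZT8 was used, with 1 library each. The authors' reads were processed with CASAVA 1.6 and Bowtie (submitters' processing notes), mapped to mm9 with only uniquely mapped reads kept, and peaks were called with MACS, separately for each ChIP library against the Input; the MACS version is not given in the sources used here. Per the file headers, the effective genome size was 1890000000 bp, the p-value cutoff 1e-05 and the tag shift model d 108 bp (CLK) and 122 bp (BMAL1). The deposited lists give the count of tags per peak, a score (10 times the negative log10 of p), a fold ratio over local Input and an FDR in percent. A deposited table gives each peak's class, gene and gene model.

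Members and gene lists were chosen with earlier results of these data known. The named genes were the 5 members with every peak, the clock gene peaks of highest score, of greatest width and wider than the median member peak, and other plasma protein genes with CLK peaks; *Trf*, *Per1* and *Nr1d1* were set side by side after their values were seen. Distances were counted from the start site of the authors' gene model. Mean pileup was tags times d over width. Summit height and background were added after seeing the data. The score gave the Poisson background for the tags of the peak, less at most 8 tags at the edges, and the fold then gave the height. A solution was kept where the height was whole within 0.05 tags and the background was the genome average or a whole number of Input tags within 0.03, in the peak or in 1, 5 or 10 kb. This held for 98.7% of CLK and 99.5% of BMAL1 peaks and for all member and clock gene peaks. The procedure was tested on simulated peaks with at most 1 edge tag. Larger numbers, such as the 6 at *Apoa1* and the 7 at *Trf*, were not simulated. Sequences were read from NCBIM37, the same build as mm9. Python 3.11.15 with pandas 2.3.3, NumPy 2.4.6 and SciPy 1.17.1 was used. No test was made, since each group is 1 library. Alternatives were an FDR of at most 5%, a minimum score of 100, 1 value per gene, no *Alb*, peaks inside the gene, CLK:BMAL1 clock peaks only, other overlaps and other motif rules.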

Additional observations from a re-analysis of the deposited data

How the results depend on the processing

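Of 148 values under alternatives, 9 turned the direction of a difference, 12 left the interval of a median or share, and the other 127 did neither. The difference in median width, plasma protein minus clock genes, was -35.0 bp and turned to 565 bp with a score of at least 100, 7.50 bp with an FDR of at most 5%, 1170 bp without *Alb*, 34.0 bp for summits inside the gene and 691 bp with 1 value per gene. The difference in background, -0.238 times the genome average, turned to 0.409, 0.143, 0.455 and 0.466 with a minimum score of 100, an FDR of at most 5%, no *Alb* and 1 value per gene. Without *Alb* the member medians were 1776 bp, 7.92 tags per 100 bp and a background of 2.12. The share of member peaks with BMAL1 was 0 at an FDR of at most 5% and without *Alb*, and that of clock peaks 100% at a score of at least 100 and, by construction, among CLK:BMAL1 peaks. The share of member peaks with CACGTG was 0 at a score of at least 100 and for peaks or summits inside the gene, and 71.4% with 1 mismatch, where that of clock peaks was 100%. The cause of these changes was not tested beyond the peaks each setting leaves. Summits inside the gene and all values of height and background were added after seeing the data. The differences in fold (-4.06), tags per 100 bp (-3.37), summit height (-12.0) and summit over mean pileup (-0.405) kept their direction throughout. No alternative compared the CLK only peaks of both lists.

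No paired analysis was possible because each group has 1 library and no result comes from a test. With 19 to 50 tags in 10 of the 14 peaks, single peaks are known only within wide counting intervals, and peaks of a gene share 1 library and 1 Input.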
